A study of Mus musculus with 13 samples.

Results

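Cells take up glucose through the facilitative carriers of the Slc2 family, also called GLUT proteins, which let hexoses move down their gradient. They take up myo-inositol, the precursor of phosphoinositides and an organic osmolyte, through the proton-coupled carrier HMIT (Slc2a13) of the same family and through the sodium-coupled carrier SMIT1 (Slc5a3). Skeletal muscle is known for GLUT1 (Slc2a1), which serves basal uptake, and for GLUT4 (Slc2a4), which insulin and contraction bring to the cell surface and whose mRNA is a feature of mature fibers. The 9 genes described here were chosen by symbol, out of 55642 genes in the count table: Slc2a1, Slc2a3, Slc2a4, Slc2a6, Slc2a8, Slc2a10, Slc2a12, Slc2a13 and Slc5a3. Enough reads for a test across all genes were found for 8 of them, and Slc2a12 is given by its counts.

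The RNA was from the established mouse myoblast line C2C12, whose cells fuse into myotubes after a change of serum, transfected with nontargeting siRNA (control KD) or with siRNA to YBX3 (YBX3 KD), an RNA-binding cold shock domain protein. Proliferating myoblasts (0 day) gave 4 control KD and 4 YBX3 KD libraries, replicates A to D. Myoblasts kept for 24 h in horse serum differentiation medium (1 day) gave 2 control KD libraries (C and D) and 3 YBX3 KD libraries (B to D), and all cells were harvested 48 h after transfection. All groups are a single cell line that underwent a transient transfection, and no untransfected cells were part of the series. Ybx3 itself, the target, averaged 311 ± 29.2 CPM (SD) over the 6 control KD libraries and 45.0 ± 13.2 CPM over the 7 YBX3 KD libraries, or 14.5% of control. CPM is the count of a gene per 1000000 counts of its library, with the library total scaled by TMM.

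Library totals ran from 33451547 to 71811371 counts, and scaling factors from 0.969 to 1.02. The summed level of 6 myoblast markers was 275 to 293 CPM in control KD and 278 to 327 CPM in YBX3 KD. Of these, the satellite cell factor Pax7 was too low to test, and the myoblast factor gene Myod1 was low, at 0.601 to 3.32 CPM. The sum thus came from the other genes: Cdh15 (99.6 to 163 CPM), Vcam1 (56.9 to 113), Myf5 (31.3 to 73.5) and Des (15.5 to 54.8). The summed level of 12 markers of muscle differentiation exceeded the range of the 0 day libraries in 1 of the 5 libraries at 1 day. It ran from 8.42 to 69.2 CPM in control KD and from 29.5 to 72.8 CPM in YBX3 KD at 0 day, was 9.14 and 30.03 CPM in control KD at 1 day, and was 19.6, 19.8 and 147 CPM in YBX3 KD at 1 day, the last in replicate C. Myog, which drives the onset of differentiation, stayed between 0.0522 and 3.46 CPM in all libraries. The markers of adipocytes summed to at most 0.176 CPM, those of leukocytes (4 genes, 2 tested) to 2.05 to 3.97 CPM and those of endothelium (3 genes, 1 tested) to 0.727 to 1.46 CPM. The 4 libraries of replicate D stood apart: in 3162 of 16848 genes (18.8%), their values did not overlap those of the other 9 libraries.

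The siRNAs listed by the study for mouse Ybx3 are shown because their seeds, bases 2 to 8 of the guide strand (in capitals), can pair with other transcripts, and because 2 of the 9 transporters hold a match. Which of these siRNAs made the RNAseq libraries is not given in the sources used here.
siRNA 05 guide: uAUAGUUGuagggacgucg
siRNA 06 guide: aUAGUAGCcgcgucuguac
siRNA 07 guide: uCCAUAUCcauuucugacg
siRNA 08 guide: aUACUUGCguggguuguuu
The sequence that pairs with the whole guide was present in 19 to 21 of 24 annotated Ybx3 transcripts for each of the 4 guides. The sense strand listed for siRNA 07 does not pair with its guide and was in none of them. A match to the seed of siRNA 07 was in the 3′ UTR of Slc2a13, and a match to the seed of siRNA 08 in that of Slc5a3, shown here on the transcript strand with the 7 matching bases in capitals (GRCm39).
Slc2a13, minus strand, chr15:91155782-91155804: ccaacacaGATATGGaaattccc
Slc5a3, plus strand, chr16:91882280-91882302: taaatagtGCAAGTAttatgttg
The Slc2a13 match starts at base 561 of a 3′ UTR of 4459 bases, and the Slc5a3 match at base 6187 of 8260. A match to the seed of siRNA 07 was present in 5.97% of the 3′ UTRs of 12930 tested genes and a match to that of siRNA 08 in 6.83%. Matches to the seeds of siRNAs 05 and 06 were in 6.71% and 4.90% of them, and in none of the 9 transporters. Each of these shares is for a single seed, whereas the transporters that hold a match were counted over all the seeds together. The share of genes with a match to any of the seeds was not counted, so no excess of matches in the transporters is read. The lengths of the 3′ UTRs were not taken into account either. These matches are a description of the letters in canonical transcripts, and whether a guide acted on either transcript was not tested.

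The level of a transporter relative to the others was set by dividing its CPM by the length in kb of its canonical transcript. Slc2a1, the GLUT1 gene (ENSMUSG00000028645, GRCm39 chr4:118965908-118996365, plus strand, 10 exons), was the most abundant by far. Its level was 24.8 ± 3.12 CPM per kb (SD, n = 6) in control KD, at percentile 82.2 of 16763 tested genes with a canonical transcript. It made up 79.9% of the summed level of the 8 chosen Slc2 genes, a sum without Slc2a9 (mean 2.66 CPM in control KD). Slc5a3, the sodium-coupled inositol carrier (ENSMUSG00000089774, chr16:91854965-91884361, plus strand, 2 exons), came next at 5.66 ± 1.38 CPM per kb. Slc2a8, which encodes the intracellular carrier GLUT8 (ENSMUSG00000026791, chr2:32861636-32872231, minus strand, 10 exons), stood at 4.77 ± 1.24 CPM per kb. The ranges of Slc5a3 and Slc2a8 overlapped, so that their order was not separated by the spread between libraries. Dividing by all exons of a gene merged, in place of the canonical transcript, put Slc2a8 at 2.04 CPM per kb and left the first 4 places of the order as they were.

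A wide gap followed, since Slc2a8 exceeded the next gene 11.4-fold. That gene was Slc2a13, the proton-coupled inositol carrier (ENSMUSG00000036298, chr15:91151898-91457464, minus strand, 10 exons), at 0.420 ± 0.0309 CPM per kb in control KD. Slc2a6, which encodes the lysosomal carrier GLUT6 (ENSMUSG00000036067, chr2:26911226-26918092, minus strand, 10 exons), was at 0.312 ± 0.167 CPM per kb. The neuronal-type carrier gene Slc2a3 (GLUT3, ENSMUSG00000003153, chr6:122704768-122778599, minus strand, 10 exons) was at 0.275 ± 0.0469 CPM per kb. The insulin-responsive carrier gene Slc2a4 (ENSMUSG00000018566, chr11:69831006-69839070, minus strand, 11 exons) was at 0.227 ± 0.117 CPM per kb, 1 step below Slc2a3. Slc2a10, the gene of GLUT10 (ENSMUSG00000027661, chr2:165345336-165361838, plus strand, 5 exons), was at 0.221 ± 0.0303 CPM per kb. Each of these 5 genes overlapped in range with its neighbor in the order, and all lay between percentiles 12.8 and 19.3 of the tested genes. Slc2a12, the gene of GLUT12 (ENSMUSG00000037490, chr10:22520279-22581589, plus strand, 5 exons), closed the order at 0.00831 ± 0.00899 CPM per kb.

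In YBX3 KD the order was the same except that Slc2a10 stood above Slc2a4. Their order differed between the days in control KD, where Slc2a10 was above Slc2a4 at 0 day (0.224 and 0.171 CPM per kb), as in YBX3 KD, and below it at 1 day (0.215 and 0.338), with 0.460 for Slc2a4 in replicate D. At 1 day in YBX3 KD, Slc2a8 (5.47 CPM per kb) stood above Slc5a3 (5.05), with ranges that overlapped. Slc2a13 was at 0.730 ± 0.156 CPM per kb (n = 7) in YBX3 KD and stayed in the fourth place, 6.64-fold below Slc2a8. Its share of the summed level of the 8 chosen Slc2 genes was 1.35% in control KD and 2.40% in YBX3 KD, while that of Slc2a1 was 79.9% and 78.6%. Between the inositol carriers, the level of Slc5a3 was 13.5 times that of Slc2a13 in control KD and 7.63 times in YBX3 KD.

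**Figure D1:**
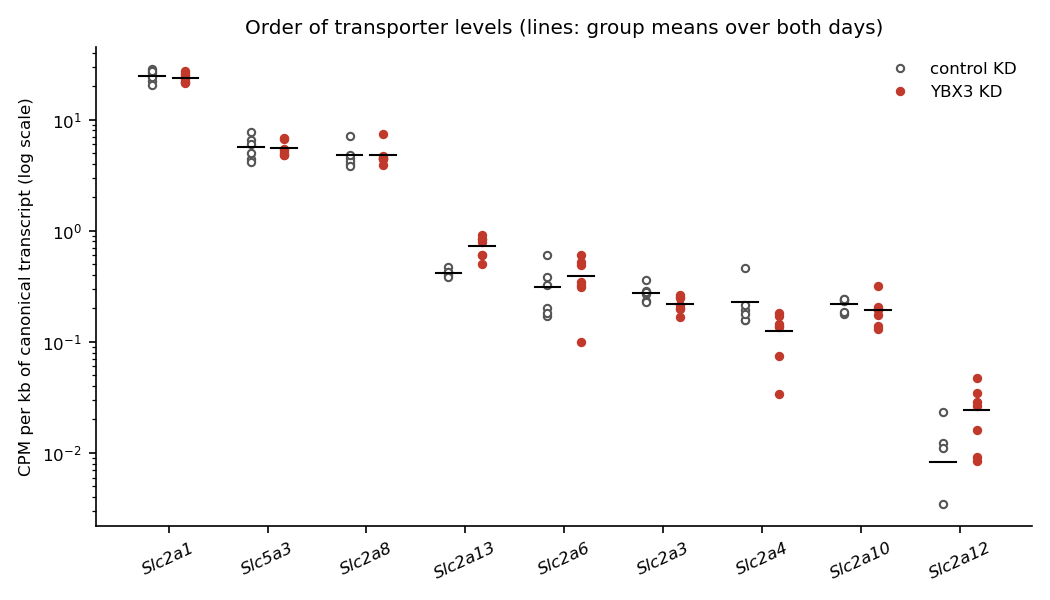
CPM per kb of canonical transcript (log axis) of the 9 transporters, ordered by their mean in control KD, with 1 point for each library (open, control KD, n = 6; filled, YBX3 KD, n = 7) and a line at the mean. Slc2a1 lies above 20 in every library, Slc2a12 is the lowest (its 2 control KD libraries at 0 are not drawn but enter the mean), and only for Slc2a13 do the open and filled points separate.

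Some transporters share exons with other genes in the annotation, which bears on how reads could be assigned to them. The canonical transcript of Slc5a3 shares 404 of its 11158 bases with exons of Mrps6, a mitochondrial ribosomal protein gene, on the same strand. It shares 165 bases with the protein-coding gene Gm49711, also on the same strand. Slc2a1 shares 249 bases with the lncRNA Gm12868 on the opposite strand. Slc2a4 shares 242 bases, none of them between canonical transcripts, with the neighboring Ybx2 gene on the opposite strand. It also shares 76 bases, 62 of them between canonical transcripts, with the lncRNA Gm72743 on the opposite strand. Slc2a12 shares 2141 of its 5589 bases with Tbpl1 on the opposite strand. The study names a stranded mRNA kit and also a TruSeq RNA kit, and calls its libraries stranded. Whether the counting used strand is not given in the sources used here, so reads from such regions could not be assigned with certainty.

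To ask whether loss of YBX3 changed the transporters, the knockdown and control libraries of both days were compared, with the day as a term. The HMIT gene Slc2a13 rose, and the other 7 tested transporters did not pass the test. The test was edgeR's quasi-likelihood test on all 16848 genes with Benjamini-Hochberg adjustment, and a gene passed at an adjusted p under 0.05. Over all genes, 394 (2.34%) passed in this comparison. With the replicate letter as a block, 1647 genes (9.78%) passed over both days and 399 (2.37%) at 0 day, and of the transporters again Slc2a13 alone, with an adjusted p of 0.00319 over both days by the blocked edgeR test. Of the 8 tested transporters, 4 had a positive and 4 a negative log2 fold change, with a median of -0.02, beside a median of 0.00 over all genes.

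Slc2a13 had 135, 120, 161 and 90 counts in control KD replicates A to D at 0 day, and 144 and 95 in replicates C and D at 1 day. In YBX3 KD it had 281, 369, 249 and 236 counts in replicates A to D at 0 day, and 187, 147 and 155 in replicates B to D at 1 day. Scaled, the control libraries were close to each other, and all 7 YBX3 KD libraries lay above all 6 control libraries. In CPM, control KD gave 3.08, 2.73, 2.60 and 2.78 at 0 day and 2.79 and 2.48 at 1 day. YBX3 KD gave 5.95, 5.13, 5.56 and 5.54 at 0 day and 3.30, 3.95 and 3.97 at 1 day. Slc2a13 was the only one of the 9 genes whose groups did not overlap over both days, and again at 0 day. Groups that did not overlap, in either direction, were found for 2.03% of all tested genes over both days and for 9.1% at 0 day.

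The log2 fold change of Slc2a13 over both days was 0.80 (SE 0.11, 95% interval 0.56 to 1.05), a 1.75-fold rise with an adjusted p of 0.00401 by edgeR's quasi-likelihood test. At 0 day it was 0.99 (SE 0.12, interval 0.72 to 1.25), or 1.98-fold, with an adjusted p of 0.00399 by the same test. Slc2a13 was the only transporter that passed at 0 day, where 0.427% of all genes did. At 1 day the log2 fold change was 0.50 (SE 0.16, interval 0.16 to 0.84) with an adjusted p of 0.494 by that test, which did not pass. With the replicate letter as a block it was 0.54, with an adjusted p of 0.0849 by the blocked edgeR test, which did not pass either. At 1 day 0.0712% of all genes passed and none of the transporters did, 2 of which, Slc2a13 and Slc2a4, had an unadjusted p under 0.05. DESeq2 and limma-voom called no transporter at 1 day either. In RNA from a whole culture, a rise in every cell and a rise in some of the cells cannot be told apart.

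At the stricter thresholds that the study used, a change beyond 1.3-fold either way with adjusted p under 0.001, edgeR called 19 genes (0.113%) over both days and none of the transporters. The study itself used DESeq2 with independent hypothesis weighting, another way of adjusting p-values, and reported Slc2a13 as significantly increased. Here Slc2a13 was past these thresholds over both days with DESeq2 without that weighting (adjusted p 1.00e-09) and with limma-voom (adjusted p 3.39e-04). Of all 16848 genes, DESeq2 called 188 and limma-voom 185 at these thresholds, many more than edgeR. The p-values measure the spread between these samples, which the labels call biological replicates and which come from a single line.

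In the 6 pairs of libraries that share a replicate letter and a day, Slc2a13 was higher in YBX3 KD each time. These libraries also entered the test above, and the share of all genes whose 6 pairs agree in direction was not counted. The log2 ratios were 0.95, 0.91, 1.09 and 1.00 in pairs A to D at 0 day and 0.50 and 0.68 in pairs C and D at 1 day. Both pairs at 1 day thus had smaller ratios than each pair at 0 day. The difference of the effect between days was -0.49 on the log2 scale (SE 0.19, unadjusted p 0.0285), with an adjusted p of 1.00 by edgeR's quasi-likelihood test, so that it did not pass. No gene passed in this comparison (0%), although 444 had an unadjusted p under 0.05. With the replicate letter as a block, the difference for Slc2a13 was -0.45, with an adjusted p of 0.433 by the blocked edgeR test.

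**Figure D2:**
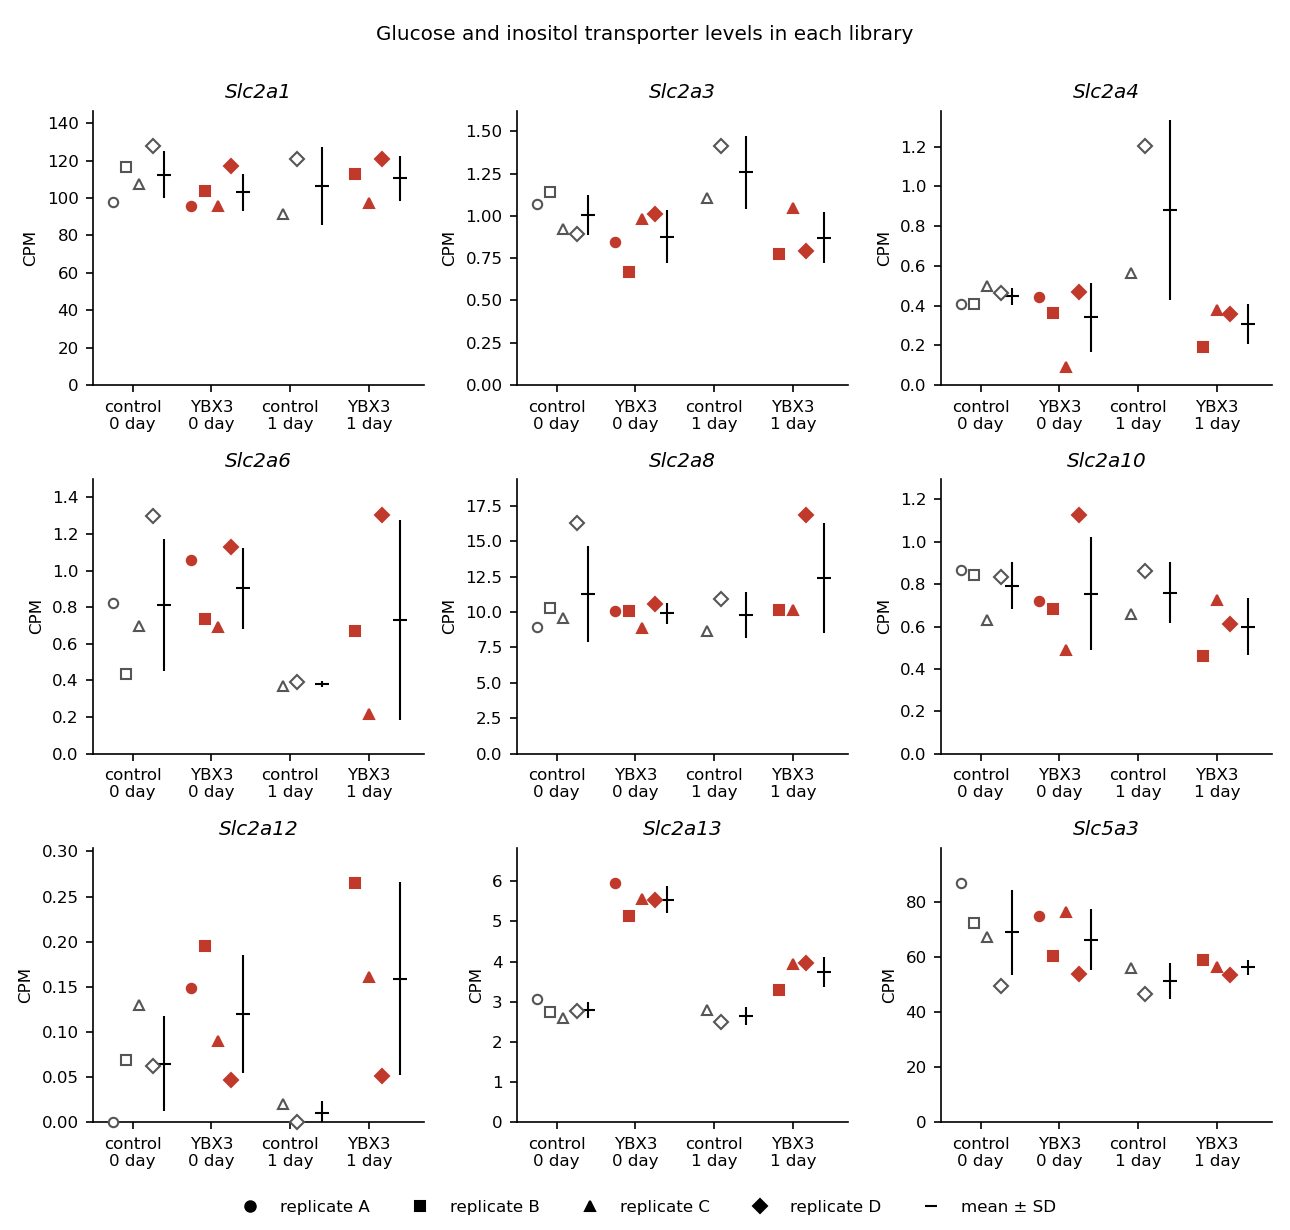
CPM of each transporter in the 13 libraries by group, with the marker shape for the replicate letter, open symbols for control KD and filled ones for YBX3 KD, and the mean ± SD beside each group. Slc2a13 sits between 2.48 and 3.08 CPM in control KD, between 5.13 and 5.95 in YBX3 KD at 0 day and between 3.30 and 3.97 in YBX3 KD at 1 day, while the groups of the other genes overlap over both days.

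Slc5a3, the other inositol carrier, did not pass the test in any comparison. It had 3812, 3188, 4171 and 1600 counts in control KD A to D at 0 day and 2885 and 1787 in C and D at 1 day. In YBX3 KD it had 3535, 4335, 3430 and 2301 counts in A to D at 0 day and 3347, 2100 and 2095 in B to D at 1 day. Its mean level was 63.1 ± 15.4 CPM (SD) over 6 control KD libraries and 62.1 ± 9.61 CPM over 7 YBX3 KD libraries, and the groups overlapped. The log2 fold change was 0.01 (SE 0.13, interval -0.26 to 0.29) with an adjusted p of 0.973 in edgeR's quasi-likelihood test. Of 6 pairs, 4 had the higher value in YBX3 KD and 2 in control KD, with log2 ratios from -0.27 to 0.20. In each of the 4 groups the library of replicate D was the lowest for Slc5a3, at 46.7 to 54.0 CPM against 55.9 to 86.9 CPM in the other 9 libraries.

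Slc2a1, the main glucose carrier of these cells, had 3635 to 7455 counts. In control KD its CPM was 98.1, 116, 107 and 128 in A to D at 0 day and 91.4 and 121 in C and D at 1 day. In YBX3 KD it was 95.8, 104, 96.0 and 117 in A to D at 0 day and 113, 97.6 and 121 in B to D at 1 day. The groups overlapped, with replicate D the highest in each of the 4 groups. The log2 fold change over both days was -0.06 (SE 0.09, interval -0.26 to 0.15), with an adjusted p of 0.814 by edgeR's quasi-likelihood test. This interval leaves out a change as large as that of Slc2a13 in either direction. The fit behind it had no term for the replicate letter, so shifts between letters enter its SE, as they do for Slc5a3 and Slc2a8.

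**Figure D3:**
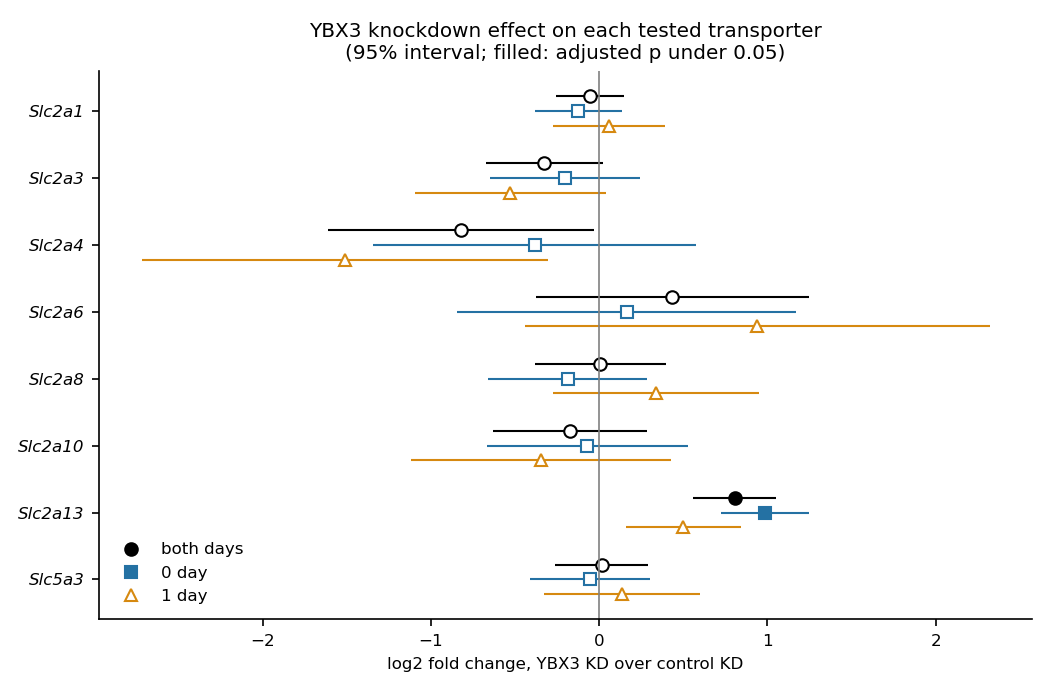
Log2 fold change of YBX3 KD over control KD (x axis) for the 8 tested transporters over both days, at 0 day and at 1 day, with 95% intervals. The filled symbols, Slc2a13 over both days (0.80) and at 0 day (0.99), passed at an adjusted p under 0.05, and the widest intervals belong to Slc2a4 and Slc2a6 at 1 day.

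The carriers of inner membranes did not pass either. Slc2a8 had 393, 452, 594 and 527 counts in control KD A to D at 0 day, 446 and 419 in C and D at 1 day, 476, 725, 396 and 450 in YBX3 KD A to D at 0 day and 573, 378 and 659 in B to D at 1 day. Its CPM was 10.8 ± 2.81 (n = 6) in control KD and 11.0 ± 2.66 (n = 7) in YBX3 KD. The difference was 0.01 on the log2 scale (SE 0.18, interval -0.38 to 0.40). Replicate D lay at 10.6 to 16.9 CPM and the other libraries at 8.65 to 10.3 CPM, so that the 2 highest values, in control KD at 0 day and in YBX3 KD at 1 day, both came from replicate D.

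Slc2a6 had 15 to 43 counts in control KD and 8 to 53 in YBX3 KD. At 0 day its CPM was 0.821, 0.433, 0.695 and 1.296 in control KD A to D and 1.06, 0.737, 0.692 and 1.13 in YBX3 KD A to D. At 1 day it was 0.368 and 0.392 in control KD C and D, and 0.670, 0.215 and 1.305 in YBX3 KD B to D. The lowest and the highest of these values were both in YBX3 KD at 1 day. The log2 fold change over both days was 0.43 (SE 0.37, interval -0.38 to 1.25), and 3 of 6 pairs were higher in YBX3 KD. Slc2a10 had 27 to 39 counts in control KD and 22 to 49 in YBX3 KD, with 0.782 ± 0.108 CPM (n = 6) and 0.688 ± 0.221 CPM (n = 7). Its log2 fold change was -0.17 (SE 0.21, interval -0.63 to 0.28).

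The 2 carriers with the lowest fold changes were Slc2a4 and Slc2a3. Slc2a4 had 18, 18, 31 and 15 counts in control KD A to D at 0 day and 29 and 46 in C and D at 1 day. In YBX3 KD it had 21, 26, 4 and 20 counts in A to D at 0 day and 11, 14 and 14 in B to D at 1 day. In CPM, control KD gave 0.410, 0.410, 0.501 and 0.463 at 0 day and 0.562 and 1.20 at 1 day, and YBX3 KD 0.445, 0.362, 0.0893, 0.470 at 0 day and 0.194, 0.376 and 0.358 at 1 day. The groups overlapped at 0 day, whereas at 1 day all 3 YBX3 KD libraries lay below both control libraries, the higher of which was replicate D. At 1 day, with 3 libraries against 2, groups that did not overlap were found for 19.9% of all tested genes and, of the transporters, for Slc2a3, Slc2a4, Slc2a12 and Slc2a13. The log2 fold change was -0.82 over both days (SE 0.36, unadjusted p 0.0423, adjusted p 0.296) and -1.51 at 1 day (SE 0.55, unadjusted p 0.0184, adjusted p 0.579) by edgeR's quasi-likelihood test, and neither passed. With so few reads, intervals were wide, from -1.61 to -0.03 over both days.

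Slc2a3 had 47, 50, 57 and 29 counts in control KD A to D at 0 day and 57 and 54 in C and D at 1 day. In YBX3 KD it had 40, 48, 44 and 43 counts in A to D at 0 day and 44, 39 and 31 in B to D at 1 day. The level was 1.09 ± 0.186 CPM (n = 6) in control KD and 0.875 ± 0.141 CPM (n = 7) in YBX3 KD, where 4 libraries lay below all control libraries. The log2 fold change was -0.33 (SE 0.16, interval -0.67 to 0.02), with an adjusted p of 0.355 by edgeR's quasi-likelihood test. Of the 6 pairs, 4 were lower in YBX3 KD.

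Slc2a12 had 0, 3, 8 and 2 counts in control KD A to D at 0 day and 1 and 0 in C and D at 1 day. In YBX3 KD it had 7, 14, 4 and 2 counts in A to D at 0 day and 15, 6 and 2 in B to D at 1 day. That is 14 counts of 272967901 in control KD, or 0.0513 CPM of the pooled counts (exact 95% Poisson interval 0.0280 to 0.0861), and 50 of 338513466 in YBX3 KD, or 0.148 CPM (0.110 to 0.195). The intervals cover counting error alone and not the spread between libraries, which ranged over 0 to 8 and 2 to 15 counts and overlapped. The YBX3 KD library had the higher value in 4 of 6 pairs, and replicate D was the lowest or next to the lowest library of each group. As the gene fell below the filter and shares exons with Tbpl1 on the opposite strand, no test is given. A control library with 0 counts allows up to 3 counts.

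**Figure D4:**
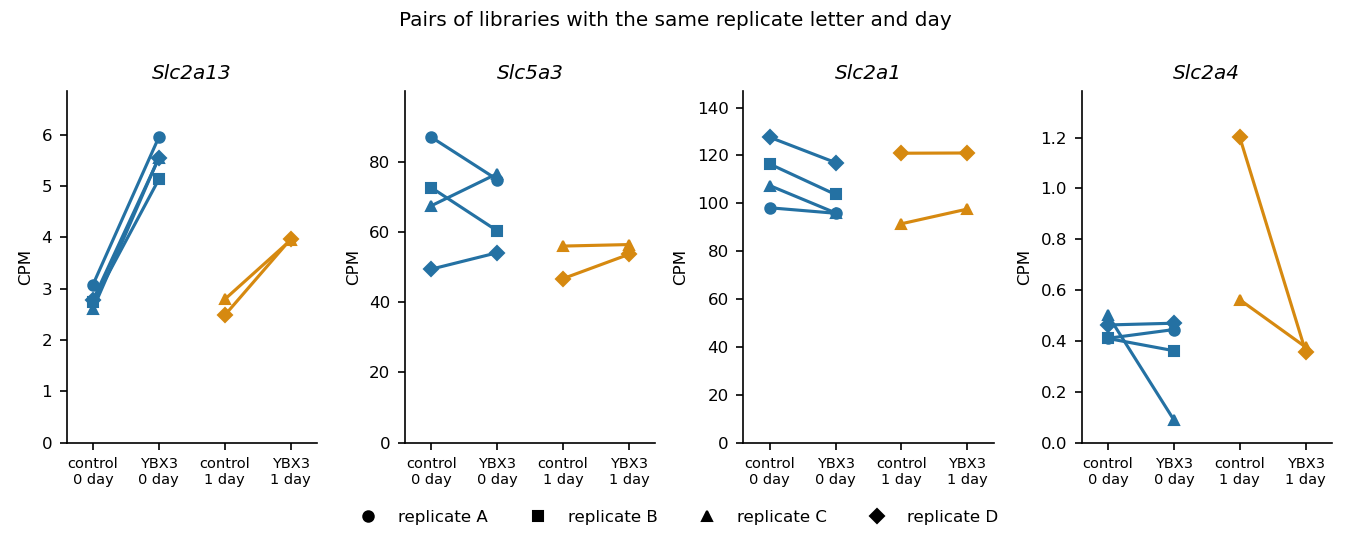
CPM in control KD and YBX3 KD libraries joined by replicate letter, at 0 day (blue) and 1 day (orange), for the inositol carriers Slc2a13 and Slc5a3 and the glucose carriers Slc2a1 and Slc2a4. All 6 lines slope up for Slc2a13 and 4 of 6 for Slc5a3, those of Slc2a1 slope down in the 4 pairs at 0 day and are level or slope up in the 2 pairs at 1 day, and Slc2a4 is lower in YBX3 KD in both pairs at 1 day.

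The step from 0 day to 1 day was then compared within each siRNA. In control KD no transporter passed, nor did any other gene (0%), and no transporter had an unadjusted p under 0.05 (242 genes did). The largest log2 differences were -1.08 for Slc2a6 (SE 0.61) and 0.97 for Slc2a4 (SE 0.51), followed by -0.43 for Slc5a3 (SE 0.20). With 2 control KD libraries at 1 day, their intervals reached from -2.41 to 0.25 for Slc2a6 and from -0.14 to 2.08 for Slc2a4.

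In YBX3 KD no gene passed between the days either (0%), with 721 at an unadjusted p under 0.05. Slc2a13 was the only transporter among them, with a log2 difference of -0.57 (SE 0.13, unadjusted p 9.40e-04, adjusted p 0.988 by edgeR's quasi-likelihood test). Its 3 libraries at 1 day, at 3.30 to 3.97 CPM, lay below its 4 libraries at 0 day, at 5.13 to 5.95 CPM. The share of all genes whose days separate in this way was not counted. For Slc2a13 the log2 differences were -0.64, -0.49 and -0.48 in replicates B, C and D. In control KD the corresponding differences were 0.10 and -0.16 in replicates C and D. DESeq2 gave an adjusted p of 0.0308 for Slc2a13 in this step and passed 4 genes.

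Replicate D stood apart for some of the transporters, as it did for many other genes. Its 4 libraries lay above the other 9 for Slc2a1 (117 to 128 against 91.4 to 116 CPM) and Slc2a8 and below them for Slc5a3. Of all tested genes, 18.8% were separated in this way in either direction, so nothing particular to the transporters is read from this. For the other transporters the ranges overlapped, and for Slc2a13 replicate D lay inside the range of replicates A to C in both groups at 0 day. At 1 day, replicate D of Slc2a13 lay below the other control KD library (2.48 against 2.79 CPM). In YBX3 KD at 1 day it lay above the others (3.97 against 3.30 and 3.95 CPM). The part of replicate D in the results was not tested beyond leaving it out. That left control KD at 1 day with 1 library, and the log2 fold change of Slc2a13 at 1 day was then 0.38, against 0.50 with replicate D. Without these 4 libraries Slc2a13 had a log2 fold change of 0.79 over both days (adjusted p 0.00718 by edgeR's quasi-likelihood test) and of 0.98 at 0 day (adjusted p 0.00813), and 2155 of 17271 genes (12.5%) passed over both days.

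The genes around these carriers were counted in 6 lists of genes written by hand from textbook roles, and the values are from the fit over both days without a block. Of 15 other sugar transporters, such as the glucose and fructose carriers of liver, gut and kidney, 4 were tested and none passed over both days, with a median log2 fold change of 0.17. The 2 with the smallest p were Slc45a4 (-0.27, adjusted p 0.140) and the urate and hexose carrier gene Slc2a9 (0.45, adjusted p 0.334) by edgeR's quasi-likelihood test. Of 24 genes of insulin signalling and GLUT4 trafficking, all were tested and none passed, with a median of -0.07. The closest to passing were Rac1, a small GTPase that acts on the actin cytoskeleton in GLUT4 exocytosis (374 to 319 CPM from control KD to YBX3 KD, log2 fold change -0.23, adjusted p 0.0769), and Sort1, the sorting receptor sortilin (16.8 to 12.6 CPM, -0.42, adjusted p 0.113), by the same edgeR test.

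Of 18 regulators of glucose transporter expression and surface level, 15 were tested and none passed, with a median of 0.03. Mef2a, a transcription factor that binds the Slc2a4 promoter, went from 142 to 175 CPM (log2 fold change 0.31, adjusted p 0.105), and the arrestin gene Arrdc4 from 4.20 to 6.15 CPM (0.55, adjusted p 0.147) by edgeR's test. Of 10 enzymes of hexose phosphorylation and its next steps, 7 were tested and none passed, with a median of -0.03. Hk2, the insulin-regulated hexokinase of muscle, was at 72.8 and 85.1 CPM (0.22, adjusted p 0.295) and Pgm2 at 65.1 and 59.8 CPM (-0.13, adjusted p 0.292) by edgeR's test.

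In this fit the inositol genes were the only list with genes that passed, and without a filter on low counts none of that list passed. Of 26 genes of myo-inositol synthesis and inositol phosphate turnover, 25 were tested, none rose and 2 fell over both days, with a median of 0.08. Both encode inositol phosphate kinases. Ipmk, the inositol polyphosphate multikinase, had 44.7 ± 2.74 CPM (SD, n = 6, 41.3 to 48.5) in control KD and 38.1 ± 2.87 CPM (n = 7, 33.6 to 41.8) in YBX3 KD, a log2 change of -0.24 (SE 0.05). Itpka, which phosphorylates inositol trisphosphate, had 0.417 ± 0.0945 CPM (0.291 to 0.525) in control KD and 0.194 ± 0.0563 CPM (0.139 to 0.305) in YBX3 KD, a log2 change of -1.07 (SE 0.24). The ranges of both genes overlapped between the groups, and their adjusted p-values by edgeR's quasi-likelihood test were 0.0371 and 0.0383. The 2 genes of 25 stand beside 2.34% of all genes, and over the 6 lists 2 of 83 tested genes (2.41%) passed, close to that share. Neither gene passed when any of 9 of the 13 libraries was left out. Without the 4 libraries of replicate D, 2 genes of the list rose (Ip6k2 and Ip6k3) and 2 fell (Ipmk and Impa2), and with the letter as a block 1 rose (Ip6k2) and 2 fell (Ipmk and Itpka), where 12.5% and 9.78% of all genes passed. With so few genes in the list, nothing particular to it is read from these counts.

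Of 10 genes of the tonicity response, to which Slc5a3 itself belongs in many cells, 9 were matched and 8 tested, and none passed, with a median of -0.07. Akr1b1, the aldose reductase gene, was at 200 and 181 CPM (-0.15, adjusted p 0.143) and the taurine carrier gene Slc6a6 at 402 and 353 CPM (-0.19, adjusted p 0.219) by edgeR's test. In the 5 other comparisons no gene of the 6 lists passed in the fit without a block. The counts of the lists depended on the fit. With the letter as a block, 8 of the 83 tested genes (9.64%) passed over both days, beside 9.78% of all genes, and outside the inositol list these were Slc45a4 and Rac1, which fell, and Irs1, the insulin receptor substrate gene, Pdpk1 and Mef2a, which rose. At 0 day Slc45a4 fell and Irs1 rose with that block, 2 of 83 genes (2.41%) beside 2.37% of all. Without replicate D, 12 of 83 (14.5%) passed over both days, beside 12.5% of all genes, among them Slc45a4, Rac1, Sort1, the Rab GTPase-activating protein gene Tbc1d4 and Slc6a6, which fell, and Slc2a9, Irs1 and Mef2a, which rose. At 0 day 7 of 83 (8.43%) passed without replicate D, beside 5.49% of all genes. DESeq2 passed 7 of 83 (8.43%) in 5 of the 6 lists over both days, beside 7% of all genes, and 1, Ipmk, at 0 day, beside 3.09%. With limma-voom 24 of 83 (28.9%) passed over both days and 14 (16.9%) at 0 day, beside 18.3% and 10.6% of all genes. These genes, beyond the 2 of each list with the smallest p, are named after their values were seen.

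Among 12903 genes with a mean of at least 1 CPM, the 3 whose log2 CPM followed that of Slc2a13 most closely over the 13 libraries were Spag1 (Pearson r 0.954, Spearman rho 0.912), Col5a1 (0.950 and 0.846) and Gosr1 (0.950 and 0.857). The libraries share their grouping into control KD and YBX3 KD, so that any gene with an effect of the siRNA shares part of this pattern. Spag1, a sperm antigen and dynein assembly factor, went from 15.1 to 19.8 CPM, Col5a1, a fibrillar collagen chain, from 1532 to 2040 CPM, and Gosr1, a Golgi SNARE, from 52.3 to 59.8 CPM between control KD and YBX3 KD.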

How the data were processed

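RNAseq was available for 13 libraries of C2C12 cells, grouped by siRNA and day from their labels. The replicate letter and the number in the title disagree at 1 day, and replicates are named by letter. Per the labels and the methods of the study, the authors quantified the reads against Gencode M30 (GRCm39) by Salmon. The deposited estimated counts are given per gene, as whole numbers without normalization. The version of Salmon and the step that made the estimates whole are not given in the sources used here. Since Salmon divides reads between overlapping transcripts by estimation, low counts of genes with shared exons can be uncertain.

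The 9 genes, the gene lists and the tests were chosen with earlier results of these data known. All 9 genes are named, and of each list the genes that passed over both days or else the 2 with the smallest p. For Slc2a13, the 3 genes with the most similar log2 CPM (pseudocount 0.1, mean of at least 1 CPM) are named. Symbols and positions are those of GENCODE vM39 (GRCm39), and 673 of 55642 identifiers had no match. Of the table, 30314 genes had a count and 16848 passed edgeR's filterByExpr on the 4 groups.

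The analysis ran in R 4.3.3, using edgeR 4.0.16 (TMM, estimateDisp, glmQLFit and glmQLFTest with default settings, Benjamini-Hochberg adjustment over all genes tested), limma 3.58.1 and DESeq2 1.42.0, and tables in Python 3.11.15 with scipy 1.17.1. The fit over both days had the day and the siRNA as terms. The other contrasts came from a coefficient for each group. The script was tested on simulated counts with 200 changed genes. SE is the absolute log2 fold change divided by the square root of F, and intervals use its t distribution.

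To see what pairs the libraries, deviations of log2 CPM from the group means were correlated for libraries from different groups. All 16 pairs with the same letter exceeded 0.1 (0.117 to 0.730, median 0.338), against 11 of 46 other pairs and 8 of 16 pairs with the same title number, so the letters were taken to pair the libraries. No 2 libraries of a group agreed within sampling noise (chi-square over degrees of freedom, 19.0 to 276 in 16 pairs).

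Alternatives were no filter, a filter at 10 counts in each library, relative log expression factors, DESeq2, limma-voom with quality weights, the letter or title number as a block, each library left out, only the libraries of a day, an adjusted p under 0.1, and merged exons for lengths. Leaving out replicate D, the non-legacy edgeR fit and the recount of the lists were added after seeing the data.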

Additional observations from a re-analysis of the deposited data

Results flagged for a closer look

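Slc2a10 in control KD replicate C at 0 day, at 0.630 CPM (39 counts), lay far below the other 3 libraries of its group, which were at 0.833 to 0.866 CPM. The gap exceeded Dixon's 95% critical value for 4 samples (0.829). It was the only such value among 18 groups of 4 libraries, and chance gives about 1 in 20.

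For Slc2a1, the YBX3 KD library was the lower one in all 4 pairs at 0 day, and at 1 day it was the higher one in pair C and level with control KD in pair D. The log2 ratios were -0.03, -0.17, -0.16 and -0.13 in pairs A to D at 0 day and 0.09 and 0.00 in pairs C and D at 1 day. The difference between days was 0.18 on the log2 scale (SE 0.19), with an adjusted p of 1.00 by edgeR's quasi-likelihood test, so that it did not pass.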

How the results depend on the processing

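Slc2a13 passed over both days and at 0 day, and missed the threshold at 1 day, under every alternative tried for it, with log2 fold changes over both days of 0.77 to 0.87 and adjusted p-values of at most 0.0157. Between days in YBX3 KD, 1 transporter (Slc2a13) passed with DESeq2 (-0.57). At the study's thresholds over both days, 1 transporter (Slc2a13) was called with DESeq2 and with limma-voom. Over all 16848 genes these called 188 and 185, against 19 with edgeR. The cause was not tested. The replicate letter as a block changed no call of a transporter (Slc2a13 0.83 over both days, 0.99 at 0 day and 0.54 at 1 day with that block), and neither did the title number. Over all genes, 394 passed over both days, against 180 without a filter, 1179 with DESeq2, 3088 with limma-voom, 1647 with the letter as a block and 2155 without replicate D. At 0 day 72 passed, against 37, 521, 1782, 399 and 948 in that order, and 43 with the title number as a block. At 1 day 12 passed, against 2, 144, 8, 12 and 21 in the first order, and 0 with the title number as a block or with the libraries of that day alone.

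Of 1060 log2 fold changes of the transporters under an alternative, 1012 kept direction and call and 47 changed sign, none of which passed the test on either side. YBX3 KD against control KD over both days turned for Slc2a8 without a filter (-0.00020) and with the title number as a block (-0.00094), and for Slc5a3 with limma-voom (-0.053) and without replicate D (-0.059). At 0 day, Slc2a8 turned with limma-voom (0.024) and without replicate D (0.0037), and at 1 day Slc2a1 (-0.056) and Slc2a6 (-0.34) turned with limma-voom. The difference between days turned for Slc2a6 with limma-voom (-0.78) and, without replicate D, for Slc2a3 (0.052), Slc2a6 (-0.030) and Slc2a10 (0.13). Between days, Slc2a8 in control KD turned with the title number as a block (0.0029). In YBX3 KD, Slc2a3 turned with DESeq2 (0.0019), limma-voom (0.23), the letter as a block (0.0081), the non-legacy fit (0.0049) and without replicate D (0.13), and Slc2a4 with limma-voom (0.078).

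With each library left out in turn, values crossed 0 as follows. Over both days the ranges were -0.11 to 0.16 for Slc2a8 and -0.058 to 0.10 for Slc5a3. At 0 day they were -0.32 to 0.075 for Slc2a10, -0.052 to 0.46 for Slc2a6, -0.28 to 0.034 for Slc2a8 and -0.19 to 0.073 for Slc5a3, and at 1 day -0.13 to 0.27 for Slc2a1. Between days in control KD they were -0.30 to 0.094 for Slc2a1, -0.26 to 0.11 for Slc2a10 and -0.38 to 0.016 for Slc2a8. Between days in YBX3 KD they were -0.15 to 0.078 for Slc2a3, -0.46 to 0.11 for Slc2a4 and -0.99 to 0.13 for Slc2a6. Where control KD at 1 day was left with 1 library, that library was assumed to vary like the other groups. The counts of Slc2a3, Slc2a4, Slc2a6 and Slc2a10, 4 to 57 per library, limit what could be seen for them.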
